A study of Mus musculus with 6 samples.

Results

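The leptin receptor gene, *Lepr*, was followed on arrays of whole liver from mice labelled as lacking the insulin receptor in hepatocytes and from their controls. The array carried 2 probe sets whose annotated gene symbol was *Lepr* alone, called A and B here by the size of their rise, of 12422 probe sets left after removal of 66 array controls, and 0 probe sets that named *Lepr* beside another gene. It was 1 of 8251 genes with a probe set of their own. *Lepr* was chosen because probe set A had the largest rise on the array, so the values of both probe sets are a description and carry no test.

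The control group, Flox, held 3 arrays of IR flox/flox albumin:CRE - mice, and the knockout group, LIRKO, held 3 arrays of IR flox/flox albumin:CRE + mice. Every mouse of both groups thus carried floxed insulin receptor alleles, and the groups differed by the Cre transgene. The albumin promoter drives Cre in hepatocytes, so other cells of the liver keep their receptor. The mice were non-fasted males on chow, 2 to 3 months old and of mixed genetic background, and the RNA of 2 to 3 mice was pooled for each array, so the spread given here is one between pools. Values are log2 intensities after robust multi-array averaging (RMA), where a step of 1 is a doubling. In whole liver, a change in the number of cells of a type and a change in RNA per cell cannot be told apart.

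Leptin is a hormone of adipocytes that reports the size of the fat stores, and its receptor is a single-pass membrane protein of the class I cytokine receptor family. Alternative splicing gives a long form, which signals through the kinase JAK2 and the transcription factor STAT3, short forms with a truncated tail, and a secreted form that binds leptin in plasma. The long form acts mainly in the hypothalamus, where its loss causes the obesity of *db/db* mice. Liver expresses mainly the other forms and is a source of the soluble receptor.

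The RefSeq promoter table, on build GRCm38.p6, held 2 start sites of *Lepr*, both on the + strand of chromosome 4. The 250 bases before each are shown because other genes were also higher in LIRKO, and the matching window of *Igfbp1*, an insulin-repressed gene, is shown beside them. Its profile was among the 5 nearest to probe set A in size and pattern, and not among the 5 nearest in pattern alone. Capitals mark matches, on either strand, to one of 4 searched motifs: the forkhead motif GTAAACA, the insulin response element core CAAAACA, the STAT motif TTCNNNGAA and the cAMP response element TGACGTCA.
*Lepr*, first window, chr4:101717157-101717406, + strand: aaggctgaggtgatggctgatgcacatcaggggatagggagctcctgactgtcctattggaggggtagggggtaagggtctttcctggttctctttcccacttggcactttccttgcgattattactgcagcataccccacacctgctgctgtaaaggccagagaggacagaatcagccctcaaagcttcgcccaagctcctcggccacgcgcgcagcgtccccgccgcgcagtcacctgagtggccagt
*Lepr*, second window, chr4:101717656-101717905, + strand: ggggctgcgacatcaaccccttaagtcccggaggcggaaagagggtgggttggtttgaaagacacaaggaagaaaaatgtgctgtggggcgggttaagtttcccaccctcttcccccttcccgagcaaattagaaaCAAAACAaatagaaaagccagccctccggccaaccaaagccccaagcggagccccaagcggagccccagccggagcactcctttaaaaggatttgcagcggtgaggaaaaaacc
*Igfbp1*, chr11:7197537-7197786, + strand: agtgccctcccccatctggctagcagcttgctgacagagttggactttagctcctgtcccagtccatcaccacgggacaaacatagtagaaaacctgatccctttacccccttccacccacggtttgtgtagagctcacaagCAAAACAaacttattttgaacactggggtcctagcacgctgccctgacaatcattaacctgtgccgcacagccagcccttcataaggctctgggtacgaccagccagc
The first *Lepr* window held 0 matches. The second held CAAAACA, with its first base 114 bases before the start site, and the *Igfbp1* window held the same letters 108 bases before its start site. The windows of the other genes with profiles near *Lepr* that the table held (*Cyp2b9*, *Gpx3*, *Rgs16*, *Igfbp2*, *Il1rn* and *Cyp2b13*) held 0 matches, and 3 of these, *Cyp2b9*, *Gpx3* and *Rgs16*, were nearer to *Lepr* in size and pattern than *Igfbp1*. Of 32851 windows of this length in the table, 5.56% held CAAAACA, 3.17% GTAAACA, 7.02% TTCNNNGAA and 1.55% TGACGTCA. A match is a description of the sequence and shows no binding.

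Before the values of *Lepr*, some properties of the arrays bear on them. On LIRKO 2 and LIRKO 3 the probe sets of the brightest of 10 level groups differed from the Flox mean by medians of -1.09 and -0.89, against -0.01 on LIRKO 1, and the medians of 9 spiked control probe sets differed from it by 1.08 and 0.96, against -0.25 on LIRKO 1. Those arrays thus had a narrower range of values, so LIRKO 1 is also given alone for *Lepr* and, where stated, for other genes. *Insr*, the targeted gene, read 5.45, 5.22 and 5.38 on Flox 1 to 3 and 5.37, 5.99 and 6.06 on LIRKO 1 to 3, so it was not lower in LIRKO. No source used here says which part of the transcript that probe set reads, so it could not check the labels, and the groups are named by their labels. With limma, 16 of 12422 probe sets passed an adjusted p of 0.05 (0.129%, 9 higher and 7 lower in LIRKO), 6095 passed without LIRKO 1 (49.1%), and 90 passed with LIRKO 2 and LIRKO 3 left out (0.725%). That last fit sets 1 LIRKO array against 3 Flox arrays, takes its spread from the Flox arrays alone and assumes that LIRKO varies like them, so its calls, here and below, describe that array and have no replicate check.

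Probe set A was low in every Flox array and high in every LIRKO array. It read 3.90, 4.17 and 3.90 on Flox 1, 2 and 3, and 9.42, 8.97 and 9.25 on LIRKO 1, 2 and 3. The Flox arrays lay within 0.27 of each other and the LIRKO arrays within 0.45, and the groups did not overlap. Flox averaged 3.99 ± 0.154 and LIRKO 9.21 ± 0.226 (SD, n = 3 each), a difference of 5.23 or 37.4-fold. This was the largest rise of all 12422 probe sets.

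Probe set B was also higher on every LIRKO array, by far less. It read 5.09, 5.49 and 5.05 on Flox 1, 2 and 3, and 5.80, 6.70 and 6.65 on LIRKO 1, 2 and 3. LIRKO 2 and LIRKO 3 were high and LIRKO 1 lay between them and Flox, and the groups did not overlap. Flox averaged 5.21 ± 0.246 and LIRKO 6.39 ± 0.506 (SD, n = 3 each), a difference of 1.18 or 2.26-fold. It ranked 95th, with 94 probe sets above it. Both *Lepr* probe sets were among the 1222 of 12422 (9.84%) whose 3 LIRKO values all lay above all 3 Flox values, and since the gene was chosen on this contrast nothing is read from that.

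**Figure D1:**
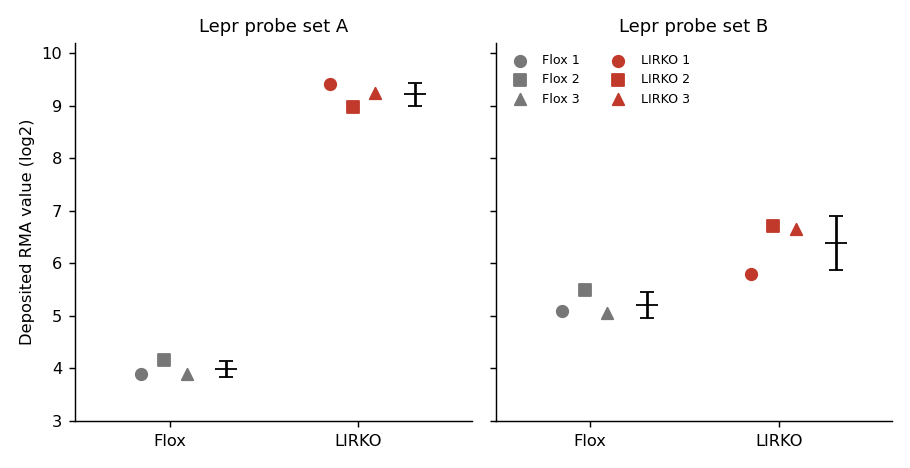
Log2 RMA values of both *Lepr* probe sets on each of the 3 Flox and 3 LIRKO arrays, with the mean and SD of each group. Probe set A goes from 3.90 to 4.17 in Flox to 8.97 to 9.42 in LIRKO, and probe set B from 5.05 to 5.49 to 5.80 to 6.70.

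The distance between the groups differed as much as the means. For probe set A the lowest LIRKO value, 8.97, lay 4.81 above the highest Flox value, 4.17, a 28.0-fold step. The next widest such step on the array was 3.31. For probe set B the step was 0.31, from 5.49 to 5.80, or 1.24-fold, and ranked 59.

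Each LIRKO array was also set against the Flox mean. Probe set A differed by 5.43, 4.98 and 5.26 on LIRKO 1, 2 and 3, or 43.2-fold, 31.7-fold and 38.3-fold. It ranked first on each LIRKO array, though on LIRKO 1 another probe set, with no gene symbol here, came close, at 5.38. Over the mean of the 3 LIRKO arrays the next largest difference was 4.39. For probe set B the differences were 0.60, 1.50 and 1.45, or 1.51-fold, 2.82-fold and 2.72-fold, at ranks 180, 169 and 141. From the mean of LIRKO 2 and LIRKO 3, LIRKO 1 differed by -0.88 for probe set B and by 0.31 for probe set A. In the deposited values the probe sets thus placed LIRKO 1 on opposite sides of the other LIRKO arrays. For probe set A this placement did not hold under every scaling, as given below.

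In its own array's order, probe set A went from the dim end to the bright end. It stood at percentiles 8.84, 10.9 and 8.94 of Flox 1, 2 and 3 and at 91.7, 92.2 and 93.5 of LIRKO 1, 2 and 3. Of the 1196 probe sets whose Flox mean was at or below that of probe set A, it alone had a LIRKO mean above 6, and the highest among the others was 5.79, with a median of 3.61. Detection calls were not used here, so whether the Flox level was above background was not tested, and the fold rests on a level near the bottom of the scale, whose lowest value on any array was 2.44. Probe set B stood at percentiles 23.2, 28.2 and 22.5 in Flox and at 34.6, 52.1 and 50.9 in LIRKO. It thus moved from the lower part to around the middle of the array on LIRKO 2 and LIRKO 3, and less far on LIRKO 1.

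**Figure D2:**
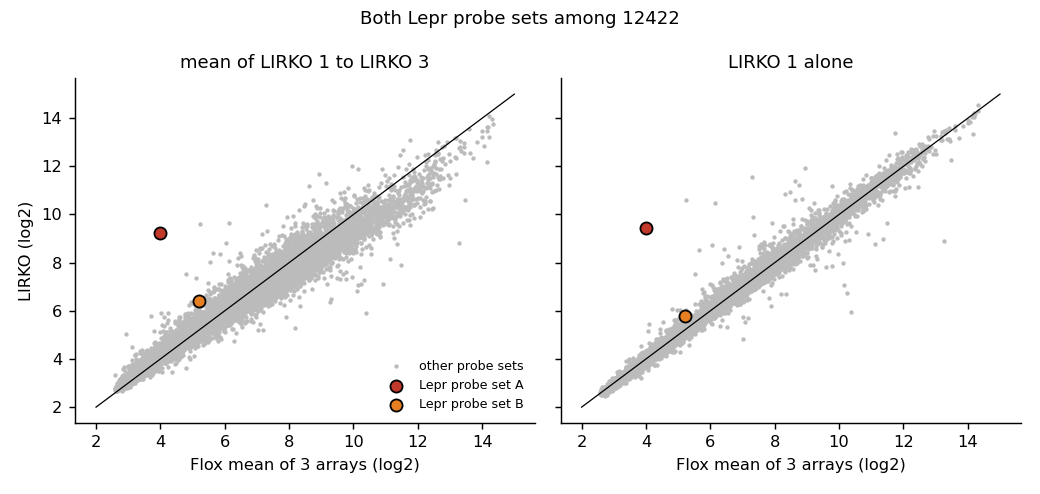
Log2 RMA value of every probe set as the Flox mean (x axis) against the LIRKO mean (left) or LIRKO 1 alone (right), with both *Lepr* probe sets marked and a line of equal values. Probe set A, at 3.99 in Flox, stands alone above the dim probe sets at 9.21 on the left and 9.42 on the right.

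Dim probe sets as a whole read somewhat higher on LIRKO 2 and LIRKO 3, so *Lepr* was set beside probe sets of like Flox level, in 10 groups of equal size. In the dimmest group, which held probe set A and 1241 others, LIRKO 1, 2 and 3 had median differences of -0.03, 0.23 and 0.15, and 0 of the others rose as far as *Lepr* on any of these arrays. The highest of the others reached 0.70, 3.31 and 2.93. Above the group's median, probe set A lay 5.46, 4.75 and 5.11. In the group of probe set B the medians were -0.03, 0.18 and 0.12, and 13, 24 and 15 of 1241 others rose as far. Above that group's median, probe set B lay 0.62, 1.32 and 1.33. Probe set A was chosen for the largest rise on the array, so its place above the mean rise of every other dim probe set follows from that choice. The rise of probe set B was matched by few of its group.

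Both probe sets rose under every scaling tried. The difference of probe set A was 5.36 after renewed quantile normalization, 5.21 after cyclic loess and 5.21 after median centring, at rank 1 each time. That of probe set B was 1.15, 1.11 and 1.17, at ranks 173, 196 and 95. The order of the LIRKO arrays for probe set A changed with renewed quantile normalization, to 9.27, 9.35 and 9.59 on LIRKO 1, 2 and 3, so no order among them is read.

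The probe sets gave the same direction and different sizes. Their changes differed by 4.05 on average, and by 4.84, 3.49 and 3.81 on LIRKO 1, 2 and 3. Among 2073 genes with 2 or more probe sets, the median of this gap was 0.386 and the 95th percentile 1.37, and *Lepr* had rank 3. The widest gaps were those of *Lcn2*, an acute phase protein, at 5.12 (-4.46 and 0.66), and *Fdps*, an enzyme of the mevalonate pathway, at 4.74 over 4 probe sets. After *Lepr* came *Asgr1*, a subunit of the asialoglycoprotein receptor, at 3.06, and *Tnfrsf1a*, a receptor of tumour necrosis factor, at 2.87. On LIRKO 1 alone *Lepr* had the widest gap of all, at 4.84, against 3.97 for *Lcn2*, 1.94 for *Fdps*, 0.22 for *Asgr1* and 0.12 for *Tnfrsf1a*. The 2 probe sets derive from different source sequences, and no source used here says which splice form each reads, so the forms of the receptor could not be separated.

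**Figure D3:**
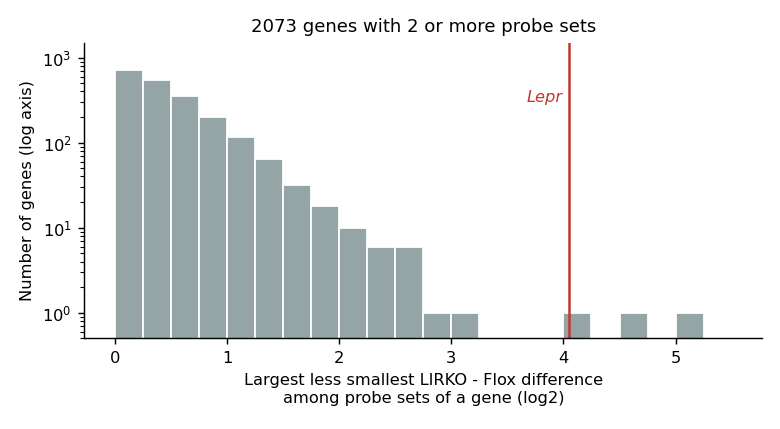
Number of genes (log scale) by the gap between the highest and lowest LIRKO minus Flox difference (log2) of their probe sets, over 2073 genes with 2 or more. The median is 0.386, and the line marks *Lepr* at 4.05, rank 3.

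Likeness to probe set A was measured as the root mean square distance over the 6 arrays, first between profiles of differences from the Flox mean, which counts size and pattern. The nearest probe sets with 1 gene symbol read *Cyp2b9*, a cytochrome P450 that is higher in female liver, at 1.26, *Gpx3*, the secreted glutathione peroxidase, at 1.57, *Rgs16*, a regulator of G protein signalling, at 1.77, and *Zbtb16*, a zinc finger transcription factor, at 1.78, and *Igfbp1*, which encodes a plasma carrier of insulin-like growth factors, at 1.79. Their LIRKO minus Flox differences were 3.51, 3.11, 2.75, 2.77 and 2.74. Each was thus well below the 5.23 of probe set A. Since probe set A was chosen for the largest rise, this measure favours other large rises, and its distances are given with no test. On LIRKO 1 alone they were 4.36, 4.28, 2.70, 2.87 and 3.01, against 5.43 for probe set A. Probe sets with no or several gene symbols were left out of this order, among them the one that came close on LIRKO 1.

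The second measure used centred and scaled profiles, and so pattern alone, over 1870 probe sets with an SD of at least 0.5. The nearest with 1 gene symbol were *Igfbp2*, another such carrier, at 0.179, *Rgs16* at 0.180 and *Il1rn*, the interleukin-1 receptor antagonist, at 0.182. Next came *Cyp2b9* at 0.207 and *Cyp2b13*, a close homologue of *Cyp2b9*, at 0.212. *Rgs16* and *Cyp2b9* were thus near by both measures. With 6 arrays in 2 groups, any probe set with a clean step between the groups is near by this measure, so the distances are given with no test. By it, the other *Lepr* probe set, B, lay at 0.522 and was 25th nearest. By size and pattern it lay at 2.89 and was 70th.

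**Figure D4:**
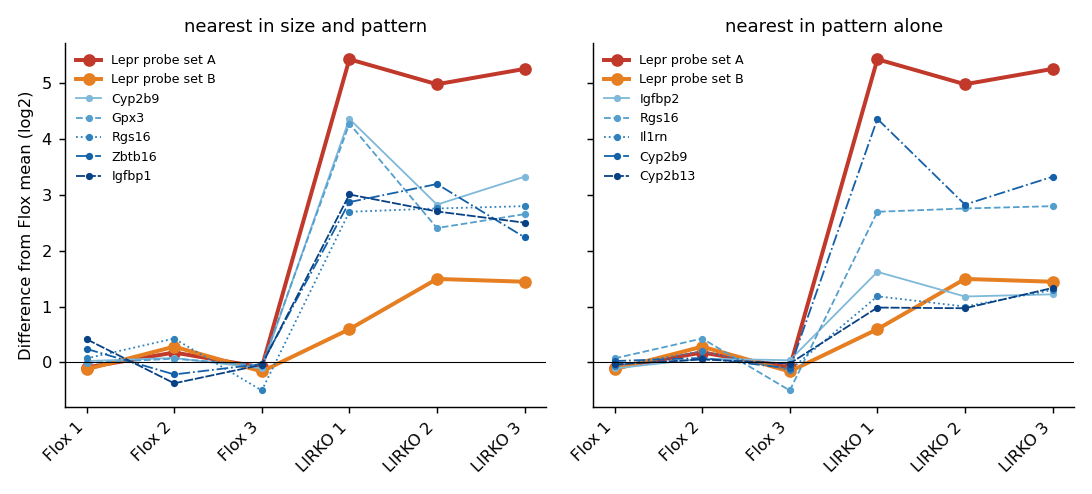
Difference from the Flox mean (log2) on each of the 6 arrays for probe set A, probe set B and the 5 genes nearest to probe set A by size and pattern (left) or pattern alone (right), where lines only join the points of a probe set. *Cyp2b9*, the nearest by size and pattern with 1 gene symbol, reaches 4.36, 2.83 and 3.33 on LIRKO 1, 2 and 3. Probe set A reaches 5.43, 4.98 and 5.26.

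The profiles nearest to probe set B, a comparison added after its values were seen, were other ones. By size and pattern, those with 1 gene symbol were *Thbd*, at 0.140, *Gkap1*, at 0.146, *H2-DMa*, at 0.177, an *Actb* probe set, at 0.190, and *Fxr1*, at 0.192. By pattern alone, 414 probe sets lay within 0.5 of probe set B and 23 within 0.5 of probe set A. Of those 414, 58.7% had a name with a suffix that marks probes shared or chosen under relaxed rules, against 22.6% of all 12422 probe sets and 17.4% of the 23. Neither *Lepr* probe set has such a suffix in its name.

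Genes that carry or dampen the signal of the receptor were read as a list. With 0.129% of all probe sets called, 0 calls in a list this short says little about its members. Of 23 measured genes of leptin receptor signalling, 0 rose and 0 fell by limma over all probe sets, against 16 of 12422 called (0.129%), 7 had an unadjusted p under 0.05, against 1876 of 8251 genes (22.7%), and the median difference was -0.13 (-0.01 over all 8251 genes). The hormone gene itself, *Lep*, which adipocytes express, averaged 9.80 ± 0.112 in Flox against 9.79 ± 0.076 in LIRKO (SD, n = 3 each), a difference of -0.01 (limma, adjusted p = 0.957). The adipocyte hormone *Adipoq* was dim in both groups, at 4.28 and 4.25, and the adipocyte markers *Fabp4* and *Cidec* were at 5.68 and 3.96 in Flox. Whether the bright *Lep* probe set reads leptin RNA in these livers was not tested.

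The receptor's kinase gene, *Jak2*, read 5.62, 5.69 and 5.86 in Flox and 5.59, 6.15 and 6.11 in LIRKO, a difference of 0.23 (limma, adjusted p = 0.433). *Stat3*, the transcription factor it activates, read 9.18, 9.17 and 9.13 in Flox and 9.15, 8.98 and 8.91 in LIRKO, a difference of -0.15 (limma, adjusted p = 0.433). For both, LIRKO 1 lay within or beside the Flox range. Another probe set of *Jak2* differed by -0.01, and another of *Stat3* by -0.47 (-0.06, -0.69 and -0.65 on LIRKO 1, 2 and 3). *Socs3*, the feedback inhibitor that STAT3 induces, differed by -0.28 (limma, adjusted p = 0.472), and *Ptpn1*, the phosphatase PTP1B that dephosphorylates JAK2, by -0.23 (limma, adjusted p = 0.264). None of these passed the test.

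The smallest p-values in the list belonged to shared signalling genes. *Pik3r1*, the regulatory subunit of phosphoinositide 3-kinase, differed by -1.19 and *Pias3*, an inhibitor of STAT3, by -0.66. *Irs2*, a docking protein, differed by 0.40 and *Stat5a* by -0.36. Each had an adjusted p of 0.237 by limma. In this order their differences on LIRKO 1 alone were -0.60, -0.14, 0.18 and -0.33. Another *Stat5a* probe set differed by 0.12. *Socs2*, a feedback inhibitor of growth hormone signalling, differed by 1.15 (1.74, 0.22 and 1.50 on LIRKO 1, 2 and 3), also at an adjusted p of 0.237 by limma. Without LIRKO 1, 13 of the 23 passed, 6 higher and 7 lower, against 49.1% of all probe sets. With LIRKO 2 and LIRKO 3 left out *Socs2* alone passed, as higher, against 0.725%.

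The other receptors of the family were read in the same way, with the same limit on 0 calls in a short list. Of 22 measured class I cytokine receptors, 0 rose and 0 fell by limma, against 0.129% of all probe sets called, 6 had an unadjusted p under 0.05, against 22.7% of all genes, and the median difference was 0.09. The growth hormone receptor *Ghr* differed most, at -1.95, with 10.55, 10.39 and 10.69 on Flox 1 to 3 and 9.96, 7.72 and 8.11 on LIRKO 1 to 3 (limma, adjusted p = 0.237). All its LIRKO values lay below Flox, with those of LIRKO 2 and LIRKO 3 far lower, the arrays on which the brightest probe sets read low. *Il27ra*, the interleukin-27 receptor, differed by 0.73, *Il4ra* by -0.50 and *Il12rb1* by -0.30, all at an adjusted p of 0.237 by limma. Their differences on LIRKO 1 alone were 0.15, -0.09 and -0.35. Another *Il4ra* probe set differed by 0.27. *Il6st*, the gp130 chain to which the leptin receptor is closely related, differed by -0.08 (limma, adjusted p = 0.853). The highest difference of any other member was 0.73, against 5.23 and 1.18 for the *Lepr* probe sets. Without LIRKO 1, 11 of the 22 passed, 6 higher and 5 lower, against 49.1% of all probe sets. *Prlr* was not measured here.

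**Figure D5:**
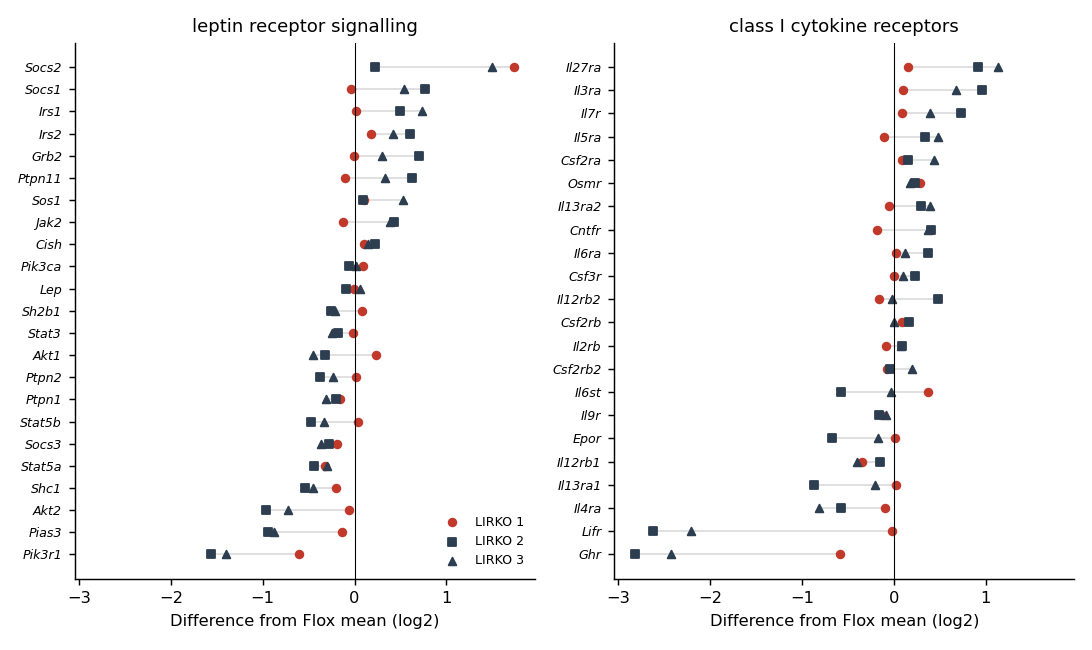
Difference from the Flox mean (log2) on each LIRKO array for every measured gene of leptin receptor signalling (left, 23 genes) and of the class I cytokine receptors other than *Lepr* (right, 22 genes), with a line from the lowest to the highest array. Means run from -1.19 to 1.15 on the left and from -1.95 to 0.73 on the right, where *Ghr* is lowest.

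Genes chosen as lying near *Lepr* formed another list, called genes next to *Lepr* below, with the same limit on 0 calls. In the gene table, *Jak1*, *Ak4*, *Dnajc6* and *Leprot* precede *Lepr* on chromosome 4. Within 4 places of *Lepr* on either side, only *Jak1*, *Ak4* and *Leprot* were measured, so the rest of the list are not its nearest neighbours. *Leprot* encodes endospanin-1, which limits the number of leptin receptors at the cell surface. *Leprot* read 5.72, 5.95 and 5.89 on Flox 1 to 3 and 6.03, 5.86 and 6.04 on LIRKO 1 to 3, a difference of 0.12 (limma, adjusted p = 0.528), so its groups overlapped. Of 10 measured genes of this list, 9 on chromosome 4 and *Pgm2* on chromosome 5, 0 rose and 0 fell by limma, against 0.129% of all probe sets called. An unadjusted p under 0.05 was found for 1, against 22.7% of all genes, and the median difference was 0.19. This was *Pgm1*, at -0.85 (limma, adjusted p = 0.237) and at -0.15 on LIRKO 1 alone. *Ak4*, a mitochondrial adenylate kinase, differed by 0.36, *Cachd1* by 0.24, *Ror1* by 0.41 and *Jak1* by -0.48. For LIRKO 1 alone these values were 0.55, 0.19, -0.15 and 0.22. Without LIRKO 1, *Pde4b*, *Jak1*, *Ror1* and *Pgm1* passed, 4 of 10 against 49.1% of all probe sets.

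Genes of sheddases, which can cut off the receptor's ectodomain, and of proteins linked to trafficking of the receptor or to leptin in plasma formed another list. Of 7 measured, *Leprot* among them, 0 rose and 0 fell by limma, against 0.129% of all probe sets called. An unadjusted p under 0.05 was found for 2, against 22.7% of all genes, and the median difference was 0.02. *Adam10*, a sheddase, differed by 0.08 (limma, adjusted p = 0.658) and *Adam17* by 0.42 (limma, adjusted p = 0.252). *Lrp1* differed by -0.79, *Clu* by -1.19 and *Crp*, a plasma protein that binds leptin, by -0.39. Their differences on LIRKO 1 alone were -0.14, -0.04 and -0.12. Without LIRKO 1, *Adam17*, *Lrp1*, *Clu* and *Crp* passed, 4 of 7 against 49.1% of all probe sets. *Leprotl1* was not measured here.

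Among target genes of STAT3 in liver, some acute phase genes fell. Of 29 measured, 0 rose and 3 fell by limma, *Saa2* at -4.45 (adjusted p = 0.00145), *Lcn2* at -4.46 (adjusted p = 0.0257) and *Apcs* at -2.98 (adjusted p = 0.0403), all of them acute phase plasma proteins, against 0.129% of all probe sets. An unadjusted p under 0.05 was found for 20 of the 29, against 22.7% of all genes. *Il1rn*, at 1.16 (adjusted p = 0.0643 by limma), was higher on all 3 LIRKO arrays. Another *Lcn2* probe set differed by 0.66. The median over the list was -0.81, on LIRKO 1 alone -0.32, and -1.12 on each of LIRKO 2 and LIRKO 3. Many of its genes, such as *Hp*, *Fgg* and *Orm1*, were among the brightest on the array. The brightest probe sets as a whole read low on LIRKO 2 and LIRKO 3, at medians of -1.09 and -0.89. The part of this in the small p-values and the median of the list was not tested. With LIRKO 2 and LIRKO 3 left out *Saa2*, *Lcn2* and *Apcs* passed as lower and *Il1rn* as higher, and without LIRKO 1, 2 passed as higher and 21 as lower, against 49.1% of all probe sets in either direction. The interleukin-6 receptor also activates STAT3, and these values do not separate it from the leptin receptor.

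Among genes of fasting and the glucagon response, *Igfbp1* rose with *Lepr*. It differed by 2.74 (limma, adjusted p = 0.0257), with 3.01, 2.71 and 2.50 on LIRKO 1, 2 and 3. Its other probe set differed by 0.21 (0.02, 0.55 and 0.05 on LIRKO 1, 2 and 3, adjusted p = 0.537 by limma), so the probe sets of *Igfbp1* also differ in size. *Igfbp1* was the 1 gene of 23 measured to pass, against 0.129% of all probe sets, and 9 had an unadjusted p under 0.05, against 22.7% of all genes, with a median difference of 0.13. *Ppara*, a nuclear receptor of fasting, differed by -0.93 (limma, adjusted p = 0.223) and by -0.80 on LIRKO 1 alone. *Pdk4*, a kinase that inhibits pyruvate dehydrogenase, differed by 0.96 (limma, adjusted p = 0.237) and by 0.75 on LIRKO 1 alone. With LIRKO 2 and LIRKO 3 left out, *Igfbp1* and *Lpin2* passed. Without LIRKO 1, 7 of the 23 passed as higher and 8 as lower, against 49.1% of all probe sets.

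Markers of the cell types of liver were read beside *Lepr* as summed linear levels per array, on the log2 scale. The 8 hepatocyte markers summed to 15.99 to 16.05 in Flox, 16.10 on LIRKO 1, and 15.44 and 15.41 on LIRKO 2 and LIRKO 3. The 10 stellate cell markers summed to 10.88 to 11.38 in Flox, 11.34 on LIRKO 1, and 12.24 and 11.99 on LIRKO 2 and LIRKO 3. The 11 endothelial markers summed to 10.85 to 11.39 in Flox and 11.12 to 11.33 in LIRKO, the 11 Kupffer and immune cell markers to 10.78 to 11.29 and 10.93 to 11.41, the 4 cholangiocyte markers to 7.50 to 7.66 and 7.43 to 8.03, and the 5 adipocyte markers to 9.98 to 10.19 and 10.01 to 10.12. In each list 0 genes passed limma's test, against 0.129% of all probe sets called. The adipocyte sum rested mainly on *Lep*, at 9.80 in Flox, since its other markers were at 6.61 or below in Flox. On LIRKO 1 the stellate, endothelial and adipocyte sums lay inside their Flox ranges. The hepatocyte sum of 16.10 and the Kupffer and immune cell sum of 11.41 lay above theirs, and the cholangiocyte sum of 7.43 lay below its own. Probe set A was 5.43 above the Flox mean on that array, and the part of cell numbers in this was not tested. On LIRKO 2 and LIRKO 3 the hepatocyte sums were lower and probe set B was higher. The hepatocyte markers were bright, with Flox means of 10.88 to 14.22. The brightest probe sets as a whole read low on LIRKO 2 and LIRKO 3, at medians of -1.09 and -0.89. The part of either in the values of probe set B was not tested. The higher stellate sums on these arrays came from single probe sets of *Reln* and *Col1a2*, and without these genes, a choice made after seeing the values, the sums of the other 8 markers were 10.45 to 11.08 in Flox, 10.98 on LIRKO 1, and 10.47 and 10.52 on LIRKO 2 and LIRKO 3, inside the Flox range. The defining hepatocyte gene *Alb* was at 14.2 in Flox, so the tissue label fits its main marker.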

How the data were processed

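Liver RNA of 3 Flox and 3 LIRKO pools was hybridised to Affymetrix mouse arrays. The authors deposited log2 intensity values per probe set after RMA, made in R with the affy and limma packages, whose versions are not given in the sources used here. The sources do not say if the 6 arrays went through RMA jointly. No scanner files or detection calls were used here, so background and saturation could not be read, and the number of arrays limits the precision.

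From these values, 66 array controls were removed and 12422 probe sets were fitted with limma 3.58.1 in R 4.3.3 (lmFit and eBayes, two-sided, Benjamini-Hochberg over all probe sets, threshold 0.05). P-values measure the spread between pooled samples. The platform annotation gave 10833 probe sets 1 gene symbol, 396 several and 1193 none. Of the first, 10817 were matched by Entrez ID to the GRCm38.p6 gene table, whose symbols were used, and 8251 genes had a probe set of their own. In a list, a gene with several probe sets was taken from the brightest. Promoters came from RefSeq, and *Zbtb16* was named without one. The script was tested on simulated data.

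The members and lists were chosen with earlier results of these data known. Named genes were those called, those with the smallest p-values in a list (4, or 3 in the lists of STAT3 targets, fasting and sheddases), a set of leptin receptor partners, the 5 nearest profiles by each measure and the 5 widest gaps between probe sets. The nearest profiles of probe set B, the suffix shares and the motifs were chosen after the values were seen. Alternatives were other scalings, a filter on dim probe sets, another adjustment, another variance prior, the methods' t-test, a replicate block and leaving out arrays.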

Additional observations from a re-analysis of the deposited data

Results flagged for a closer look

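The medians of 9 spiked control probe sets, which report RNA added to each sample and not liver RNA, lay 1.08 above the Flox mean on LIRKO 2 and 0.962 above it on LIRKO 3, against -0.25 on LIRKO 1 and -0.23 to 0.18 on the Flox arrays. These probe sets stand outside the comparisons above. On LIRKO 2 and LIRKO 3, 9 of 9 and 8 of 9 lay above their Flox means. This count was also 8 of 9 on Flox 1 and on Flox 2, and 0 of 9 on Flox 3 and on LIRKO 1. *Lepr* probe set B read 6.70 and 6.65 on LIRKO 2 and LIRKO 3, against 5.80 on LIRKO 1, while probe set A read 8.97 and 9.25, against 9.42.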

How the results depend on the processing

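The rise of both *Lepr* probe sets kept its direction under every scaling and every array left out. With LIRKO 2 and LIRKO 3 left out, the differences were 5.43 for probe set A and 0.60 for probe set B and the gap between them was 4.84. Leaving out 1 array at a time gave 5.12 to 5.35, 1.02 to 1.47 and 3.65 to 4.32. In the whole array, the 16 calls became 2 with a Bonferroni adjustment, 40 with cyclic loess, 90 with LIRKO 2 and LIRKO 3 left out, 0 by the methods' t-test after Benjamini-Hochberg and 728 before it, and 2 to 6095 with 1 array left out, the highest without LIRKO 1. Leaving out 1 array gave 0 to 13 for leptin receptor signalling, 0 to 11 for class I cytokine receptors, 1 to 23 for STAT3 targets, 0 to 15 for fasting genes, and 0 to 4 for genes next to *Lepr* and for sheddases, each highest without LIRKO 1. With LIRKO 2 and LIRKO 3 left out, signalling had 1 call and fasting genes 2. By the methods' t-test, unadjusted, signalling had 3, class I cytokine receptors 1, STAT3 targets 7 and fasting genes 3, and after Benjamini-Hochberg the latter pair had 0. With Bonferroni, STAT3 targets had 1 and fasting genes 0. The causes were not tested.

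The labels share replicate numbers but do not state that these pair the arrays, so the arrays were not taken as pairs. Deviations of same-numbered arrays correlated at 0.32, 0.40 and 0.09, and those of differently numbered arrays at -0.37 to 0.17. With a replicate block, 11 probe sets passed instead of 16, and the number of genes with an adjusted p under 0.05 did not change in any of the 6 lists. At an unadjusted p under 0.05 the block gave 10 fasting genes instead of 9, 2 genes next to *Lepr* instead of 1, and 4 sheddase and trafficking genes instead of 2. The block left 5.23, 1.18 and 4.05 for *Lepr* as they were.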
